A study of Mus musculus with 2 samples.

Results

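The cells described here are mouse spleen B cells that carried RNA of Mir155hg, Nfkbid and Irf4. They were chosen by measured values, the counts of unique molecular identifiers (UMIs), each of which stands for 1 captured RNA molecule. A barcode was kept at 500 UMIs or more, 200 genes or more and under 10% mitochondrial UMIs. A rule B cell held at least 3 UMIs of Cd79a, Cd79b and Ms4a1 together, 0 UMIs of the T cell receptor subunits Cd3d, Cd3e and Cd3g, under 20 UMIs of Jchain, under 3 UMIs of the marginal zone genes Cr2, Cd1d1, Cd9 and Myof, and 0 UMIs of the B-1 cell gene Bhlhe41. Members were rule B cells with at least 2 UMIs of Mir155hg, Nfkbid and Irf4 together, and 1809 of 9861 rule B cells, among 18316 kept cells, met this. They were set against 5628 rule B cells with 0 UMIs of the 3 genes, called zero B cells.

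The study compared 1 library of splenocytes with the M694I knock-in in Mefv with 1 library labelled M694I WT, from age-matched mice per the series' design text. Mefv codes for pyrin, an inflammasome sensor whose human counterpart is changed in familial Mediterranean fever. Red cells had been lysed and no cell type had been sorted. The sources used here give no strain, no age and no number of mice. With 1 library a genotype, nothing was replicated and no test was made. Intervals are 95% intervals for counting error only, and each genotype comparison is one of 2 libraries.

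The knock-in library was the shallower one: its rule B cells had a median of 1791 UMIs, against 2281 UMIs in the wild-type library. The libraries shared 27 barcode sequences, of which 1 knock-in and 4 wild-type barcodes were members. Mefv itself had 78 UMIs in all knock-in kept cells and 153 UMIs in all wild-type kept cells, with 1 UMI in knock-in members and 4 UMIs in wild-type members. A 3' tag does not read the changed codon, so these counts do not check the genotype labels.

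Antigen binding to the B cell receptor switches on NF-kB, NFAT and early response factors such as Egr and Nr4a proteins. Irf4 is a transcription factor whose amount rises with receptor signal strength and which later drives plasma cell formation. Nfkbid codes for IkBNS, a nuclear IkB protein that is itself induced by NF-kB and is needed for marginal zone and B-1 cell development in the mouse. Mir155hg is the host transcript of miR-155, a microRNA that activated B cells make and that germinal centre and class-switched responses need.

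The data count the Mir155hg host transcript, not the microRNA. On GRCm38, Mir155hg is annotated by GENCODE as a lincRNA at chr16:84703167-84715245 on the plus strand, and the miR-155 hairpin lies inside that span at chr16:84714140-84714204. Nfkbid lies at chr7:30421732-30428746, Irf4 at chr13:30749226-30766976 and Gadd45g at chr13:51846678-51848468, all protein-coding and on the plus strand. The mature strand of miR-155 is shown first, with its seed (bases 2 to 8) in capitals, because the seed sets which transcripts it pairs with. Below it stand the matching sites in the 3' UTRs of 5 known targets that were measured in the members, with the seed match in capitals, written as DNA on the gene's strand.
mmu-miR-155-5p: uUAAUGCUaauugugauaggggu
Inpp5d, chr1:87719830-87719848, plus strand: ttttaaaaAGCATTAaaga
Spi1, chr2:91115429-91115447, plus strand: ccggccatAGCATTAaccc
Cebpb, chr2:167690358-167690376, plus strand: ccgtttcgAGCATTAaagt
Jarid2, chr13:44920085-44920103, plus strand: tttgttttAGCATTAaact
Socs1, chr16:10784203-10784221, minus strand: tgtgccgcAGCATTAagtg
The microRNA sequence is RefSeq's and the sites were read from GENCODE M21 transcripts, both on GRCm38. Each of these 5 sites was followed by an A, which makes it an 8-base match. Jarid2 held 2 such sites, and Picalm, the other measured target, held a 7-base match.

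Other genes were compared between members and zero B cells by summing UMIs per library and dividing by the total of the same cells, given as CPM. A gene was measured with a mean of at least 20 CPM and at least 50 UMIs, and it was called higher or lower when its log2 ratio passed 0.5 in size, a 1.41-fold difference, in the same direction in both libraries. Of 4715 genes measured, 82 were higher in members (1.74%) and 20 were lower (0.424%). The median log2 ratio over all measured genes was 0.02 in the knock-in library and 0.03 in the wild-type library. The 3 rule genes and the other genes that the rule counts are left out of these numbers.

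Several genes of the NF-kB feedback loop were among the higher ones. Of 15 measured genes coding for NF-kB subunits, IkB proteins and related regulators, 7 were higher and 0 were lower, with a list median of 0.23 in knock-in and 0.51 in wild-type cells. Nfkbia, which codes for the inhibitor IkB-alpha, stood at 633 CPM in knock-in members and 366 CPM in knock-in zero B cells. In the wild-type library it stood at 772 CPM in members and 369 CPM in zero B cells, so that its log2 ratios were 0.79 (0.69 to 0.89) and 1.06 (0.99 to 1.14). Nfkbiz, another nuclear IkB gene, had 77.4 CPM in knock-in members against 25.0 CPM in zero B cells, and 101 CPM in wild-type members against 28.6 CPM in zero B cells. Its ratios, 1.63 and 1.82, were the widest in the list. Traf1, a signalling adaptor induced by NF-kB, had ratios of 1.13 and 1.30, and Tnfaip3, which codes for the brake A20, 0.82 and 1.01. Nfkbie, Nfkb1 and Rel completed the 7, with ratios between 0.51 and 0.88 in the 2 libraries.

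Windows of 30 bases from promoters of genes higher in members, and of Nfkbid, show where the 10-base NF-kB consensus occurs, with matches in capitals and overlapping matches joined. They are written on the gene's strand and come from RefSeq's promoter table on GRCm38.p6, which spans 250 bases before to 50 bases after a gene's start.
Nfkbid, chr7:30422170-30422199, plus strand: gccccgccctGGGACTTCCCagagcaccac
Nfkbid, chr7:30422215-30422244, plus strand: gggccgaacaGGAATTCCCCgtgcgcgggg
Nfkbia, chr12:55492657-55492686, minus strand: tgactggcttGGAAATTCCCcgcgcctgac
Nfkbie, chr17:45555584-45555613, plus strand: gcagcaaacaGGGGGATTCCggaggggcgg
Rel, chr11:23771041-23771070, minus strand: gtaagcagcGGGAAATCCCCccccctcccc
Tnfaip3, chr10:19015403-19015432, minus strand: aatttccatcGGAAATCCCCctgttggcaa
Casp4, chr9:5308747-5308776, plus strand: tgagttacaGGGGATTTCCCcacagcagtt
Both Nfkbid matches lie in the second of its 3 listed promoters, 226 and 181 bases before that start. The Irf4 and Gadd45g promoters held no match in this window. The table's 1 window for Mir155hg, chr16:84712773-84713072, held none either, but it lies inside the annotated span, so the annotated start was not searched. Searched on both strands, the consensus was in at least 1 promoter of 11 of 66 higher genes with an entry (16.7%), against 245 of 3796 measured genes with an entry (6.45%) and 1480 of 32851 promoters in all (4.51%). The AP-1 motif TGANTCA was in promoters of 6 of the 66 genes (9.09%), against 5.35% of the 3796. A match of letters is a description and does not show that a factor binds there.

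**Figure D1:**
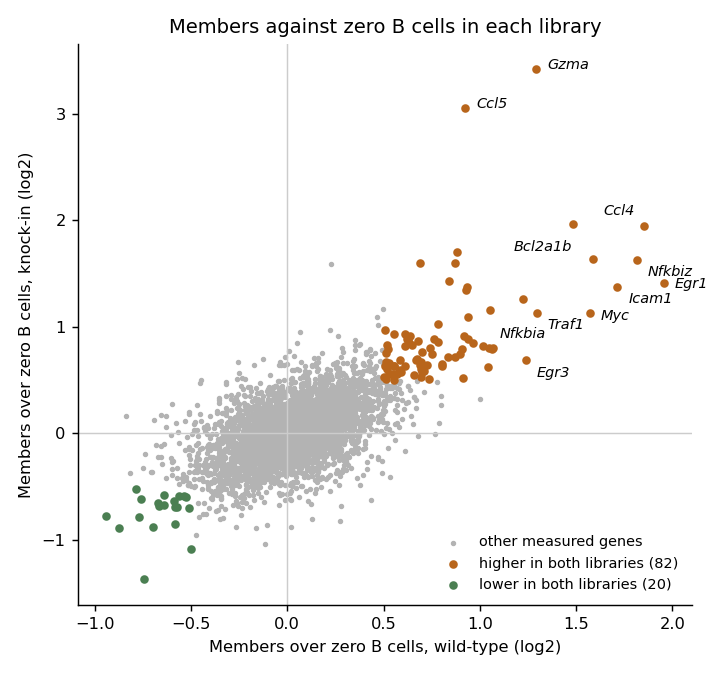
Log2 ratio of members over zero B cells for 4715 measured genes, knock-in library on the vertical axis and wild-type library on the horizontal axis, 1 point a gene. The 82 genes higher in both libraries sit upper right and the 20 lower ones lower left. Ccl5 and Gzma stand far off the diagonal, at 3.05 and 3.41 in the knock-in library against 0.92 and 1.29 in the wild-type library.

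The lists of survival, of Myc and ribosome biogenesis and of early response genes each had 3 genes past the fold. Bcl2a1b, a BCL2 family survival gene that shares sequence with close copies such as Bcl2a1d, had 271 CPM in knock-in members against 86.9 CPM in zero B cells, and 146 CPM in wild-type members against 48.7 CPM in zero B cells. Its log2 ratios were 1.64 and 1.59, though reads of the copies may not be fully told apart. Ccl4, a chemokine of activated B cells, had still wider ratios of 1.95 and 1.85, at 161 CPM in knock-in members against 41.6 CPM in zero B cells, and 62.0 CPM in wild-type members against 17.2 CPM in zero B cells. These ratios rested on few cells. A Ccl4 UMI was found in 50 of 639 knock-in and 50 of 1170 wild-type members, and 10 cells held 72.2% and 63.4% of the UMIs. Of 8 measured survival genes 3 were higher, the others being Bcl2a1d and the kinase gene Pim1 (0.80 and 1.05). Myc, a master regulator of cell growth, had 233 CPM in knock-in members against 106 CPM in zero B cells, and 207 CPM in wild-type members against 69.7 CPM in zero B cells. Its ratios were 1.13 (0.96 to 1.31) and 1.57 (1.40 to 1.74).

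Of 14 measured genes of Myc and ribosome biogenesis 3 passed the fold, namely Myc, the nucleolar gene Nop58 and the spermidine synthase gene Srm. The list median was 0.57 in knock-in and 0.45 in wild-type cells, against 0.02 and 0.03 over all measured genes. Ccnd2, the D-type cyclin of activated B cells, had ratios of 0.84 and 0.96, and 2 of 8 measured cell cycle genes were higher. Of 11 measured genes of nutrient uptake and glycolysis none passed in both libraries, with list medians of 0.39 in knock-in and 0.18 in wild-type cells. At the shares over all measured genes, 1.74% higher and 0.424% lower, a list of 11 would rarely hold any.

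Of 10 measured early response genes 3 were higher: Egr1, Egr3 and Nr4a3. Egr1 had 65.3 CPM in knock-in members against 24.5 CPM in zero B cells, and 91.5 CPM in wild-type members against 23.6 CPM in zero B cells, for ratios of 1.42 and 1.96. Nr4a1, a reporter gene of receptor signalling, reached 0.40 and 0.47 and did not pass the fold. Atf3 and Maff were the 2 of 8 AP-1 and ATF genes that were higher.

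Of 10 measured surface activation genes 1 passed the fold in both libraries, with list medians of 0.29 in knock-in and 0.36 in wild-type cells. This was Icam1, an adhesion molecule, at 1.38 and 1.71. Cd69 had 304 CPM in knock-in members against 239 CPM in zero B cells, and 369 CPM in wild-type members against 234 CPM in zero B cells, which passed the fold in the wild-type library alone (0.34 and 0.66). Cd83 likewise reached 0.31 and 0.60, and Cd86, a costimulatory ligand, 0.26 and 0.40. Whether the libraries differ in these ratios was not tested.

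Gadd45g, a growth arrest and DNA damage gene named with the label as a further marker, did not pass the fold in either library. It had 202 CPM in knock-in members against 187 CPM in zero B cells, a log2 ratio of 0.11, and 198 CPM in wild-type members against 141 CPM in zero B cells, a ratio of 0.498. Nfkbia, Myc and Egr1 passed in both libraries. Of B cell genes outside the rule, Pax5, a transcription factor of B cell identity, had 126 CPM in knock-in members against 135 CPM in zero B cells, and 133 CPM in wild-type members against 176 CPM in zero B cells.

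None of 16 measured receptor signalling genes and none of 16 follicular identity and homing genes passed the fold in both libraries, with list medians between -0.22 and -0.02. Over all 4715 measured genes 1.74% were higher and 0.424% lower, so lists this short would hold few or none at that share. The follicular median in the knock-in library turned from -0.22 to 0.10 when zero B cells were weighted to the members' depth. S1pr1, the egress receptor, lay at -0.45 and -0.44, and Txnip, a thioredoxin inhibitor of quiescent cells, at -0.65 and -0.43. Id3, which codes for an inhibitor of E proteins, lay at -0.78 and -0.46. Among genes that passed, Btla, an inhibitory receptor of the CD28 family, had 56.8 CPM in knock-in members against 85.7 CPM in zero B cells, and 73.5 CPM in wild-type members against 106 CPM in zero B cells. Cnp, Rnase6 and Arhgap45 were the other named genes past the fold, with ratios between -0.78 and -0.51, while Ypel3, Plekho1 and Tmem108 lay between -0.56 and -0.47.

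None of 6 measured miR-155 targets passed the fold, with medians of -0.02 in knock-in and 0.05 in wild-type cells. With 1.74% of all measured genes higher and 0.424% lower, a list of 6 would rarely hold any. Inpp5d, which codes for the phosphatase SHIP-1, had 177 CPM in knock-in members against 176 CPM in zero B cells, and 238 CPM in wild-type members against 230 CPM in zero B cells. Socs1, a cytokine signalling inhibitor, lay at -0.51 and -0.41, and Jarid2, a Polycomb cofactor, at 0.31 and 0.34. Across all measured genes, 487 of 4554 with an annotated 3' UTR of at least 50 bases held the 7-base seed match (10.7%), and their median ratios were 0.01 in knock-in and 0.05 in wild-type cells. The 4067 genes without a match had medians of 0.02 and 0.03. Of the 487 genes 8 were higher and 1 lower in members, and of the 4067 genes 72 were higher and 18 lower.

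The levels of several of these genes climbed with the number of rule gene UMIs. Nfkbia stood at 366, 406, 548, 662 and 736 CPM in knock-in B cells with 0, 1, 2, 3 and 4 or more rule UMIs, and at 369, 463, 627, 827 and 959 CPM in wild-type B cells. Egr1 stood at 24.5, 36.2, 48.6, 70.6 and 85.5 CPM in knock-in B cells over the same steps, and at 23.6, 38.0, 64.9, 96.4 and 130 CPM in wild-type B cells. Both genes stood higher at every step in both libraries, and cells just inside the limit lay between those just outside and those well inside. The 1096 knock-in and 1328 wild-type B cells with 1 UMI are the ones just outside, and the 337 and 582 cells with 2 UMIs are just inside. Cells with more rule UMIs were also deeper, with a median of 2998 UMIs in knock-in and 2841 UMIs in wild-type cells at 4 or more, against 1702 and 2192 UMIs at 0.

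**Figure D2:**
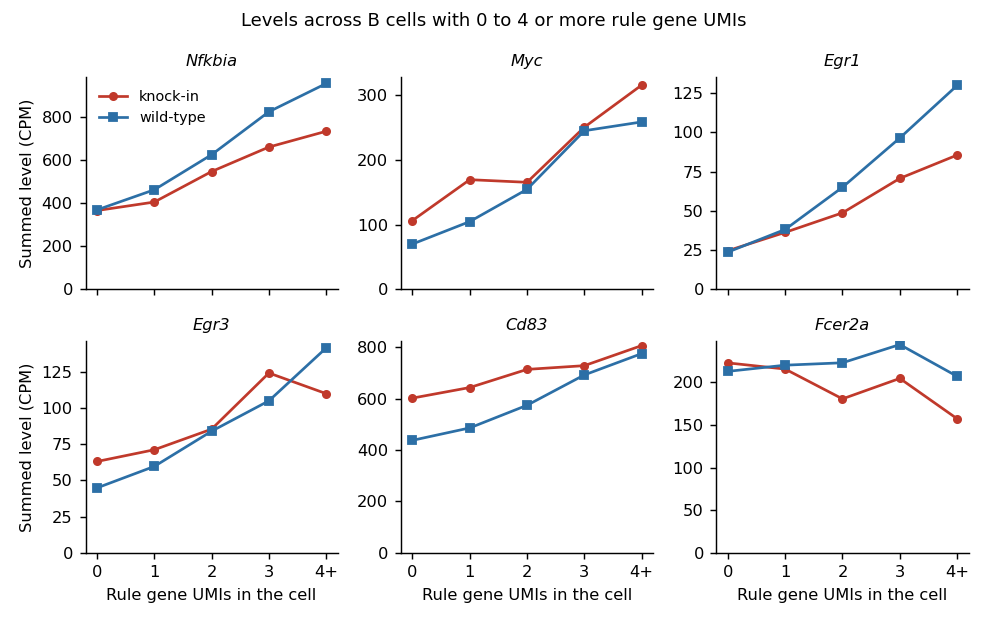
Summed level in CPM of 6 genes in rule B cells grouped by their UMIs of Mir155hg, Nfkbid and Irf4 together, from 0 to 4 or more, knock-in in red circles and wild-type in blue squares, 1 library each. Nfkbia and Egr1 climb at every step in both libraries, while Fcer2a, the low-affinity IgE receptor of follicular cells, stands at 223, 215, 181, 205 and 157 CPM in knock-in and at 213, 220, 223, 244 and 207 CPM in wild-type cells.

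The members were not uniform in the genes that chose them. All 3 genes were seen in 72 of 639 knock-in members (11.3%) and 150 of 1170 wild-type members (12.8%). Nfkbid alone qualified 16.3% (13.5 to 19.4) of knock-in members, against 6.50% (5.15 to 8.06) of wild-type members. Irf4 alone qualified 12.2% (9.77 to 15.0) of knock-in members, against 17.5% (15.4 to 19.8) of wild-type members.

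Compared with members that had Mir155hg or Nfkbid and no Irf4, Nfkbia and Ccnd2 were lower in members that held Irf4 alone. Nfkbia stood at 496 CPM (406 to 601) in 78 such knock-in members, against 752 CPM (689 to 819) in 257 knock-in members with Mir155hg or Nfkbid and no Irf4. In wild-type members it stood at 468 CPM (418 to 523) in 205 cells, against 893 CPM (831 to 958) in 299 cells. Ccnd2 followed, at 70.9 against 148 CPM in knock-in and 133 against 240 CPM in wild-type members, and the intervals did not overlap in either library. In 304 knock-in members with Irf4 and Mir155hg or Nfkbid, Nfkbia had 585 CPM (540 to 632), which overlapped the interval for Irf4 alone. In 666 such wild-type members it had 815 CPM (779 to 853), which did not overlap. Ccnd2 had 154 and 230 CPM there, without overlap in either library. Other NF-kB genes did not all share the gap between members with Irf4 alone and members without Irf4. Rel had 643 CPM (539 to 760) against 704 CPM (643 to 770) in knock-in members, where the intervals overlapped, and 576 CPM (521 to 637) against 731 CPM (675 to 790) in wild-type members. Nfkbie had 47.3 CPM (22.7 to 86.9) against 119 CPM (94.3 to 147) in knock-in members, and 83.0 against 90.2 CPM, with overlapping intervals, in wild-type members. Bcl2a1b had 279 against 253 CPM in knock-in and 107 against 122 CPM in wild-type members, overlapping in both. Egr1 had 37.8 CPM (16.3 to 74.5) on 8 UMIs against 69.4 CPM (51.2 to 92.0) in knock-in members, which overlapped, and 84.5 CPM (64.0 to 109) against 42.2 CPM (29.7 to 58.2) in wild-type members.

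Few members led with a switched heavy chain. Ighm reached 2 UMIs in 79.8% of knock-in and 83.0% of wild-type members, and Ighd in 33.6% and 40.0%. Switched heavy chains outnumbered Ighm and Ighd in 8 of 639 knock-in members (1.25%) and 12 of 1170 wild-type members (1.03%), against 0.756% of knock-in and 0.588% of wild-type zero B cells, with overlapping intervals. The lambda light chain led in 7.26% (5.36 to 9.56) of knock-in members and 10.2% (8.48 to 12.1) of wild-type members, against 10.2% and 12.4% of zero B cells. The 9 genes of the plasma cell list outside the rule summed to 1204 CPM in knock-in members against 955 CPM in zero B cells, and to 783 CPM in wild-type members against 809 CPM in zero B cells. At least 1 of their UMIs was found in 84.0% of knock-in and 81.6% of wild-type members, against 76.0% and 79.8% of zero B cells, which were shallower. None of the 5 measured genes of this list passed the fold between members and zero B cells, and 2 of 5, Mzb1 and Ssr4, were higher in knock-in than in wild-type members. Over all measured genes 1.74% were higher and 0.424% lower in members, and 8.46% were higher in knock-in members. Prdm1, the repressor that drives plasma cell formation, was too low to be measured, with 19 UMIs in knock-in and 25 UMIs in wild-type members.

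Fewer B cells met the rule in the knock-in library, and the gap was narrower at equal depth. Members made up 13.8% (12.8 to 14.8) of rule B cells in the knock-in library, against 22.4% (21.3 to 23.6) in the wild-type library, a log2 ratio of -0.70 (-0.85 to -0.56). A limit of 2 UMIs is easier to reach in deeper cells. When every cell was thinned to 1000 UMIs, leaving out 105 knock-in and 19 wild-type B cells, 5.22% (4.59 to 5.91) of knock-in and 6.75% (6.09 to 7.47) of wild-type B cells met it. The ratio was then -0.37 (-0.61 to -0.13), lower in knock-in but nearer 0. Within steps of equal depth the knock-in share was also the lower one, for example 13.7% against 19.7% of cells with 2000 to 2500 UMIs, and 32.3% against 39.0% with 4000 to 6000 UMIs, where the intervals overlapped.

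**Figure D3:**
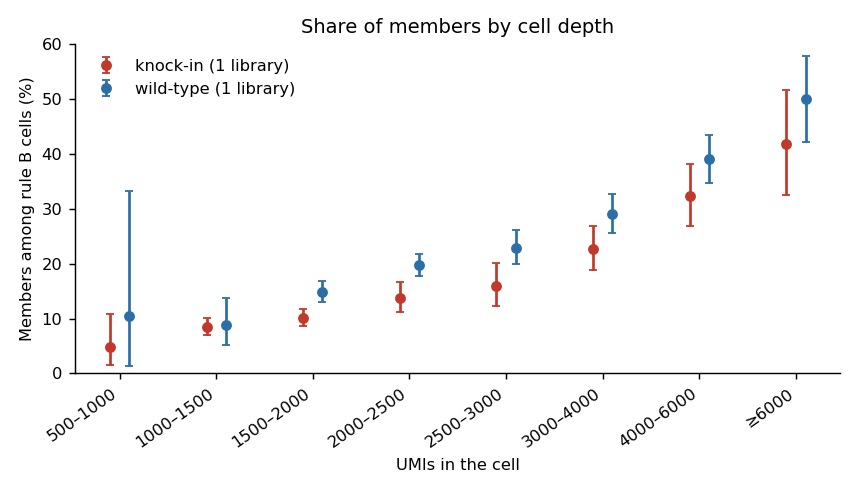
Percent of rule B cells that were members, by UMIs in the cell, knock-in in red to the left and wild-type in blue, with exact 95% binomial intervals. The share climbs with depth in both libraries, and the knock-in points lie below the wild-type ones at every depth, with overlapping intervals under 1500 UMIs and at 2500 UMIs and above.

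T cells, 1547 in the knock-in and 1602 in the wild-type library, gave a background for these shares, though they can express the same genes. At least 2 UMIs were found in 6.27% of knock-in T cells, at a median of 2556 UMIs, and in 8.86% of wild-type T cells, at a median of 3086 UMIs. Both lie below the members' shares of B cells, at greater depth.

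The 3 rule genes did not move together between the libraries, as their levels over all rule B cells, which do not depend on the limit of 2 UMIs, show. Irf4 had 97.7 CPM (91.9 to 104) over all knock-in rule B cells, against 157 CPM (151 to 164) in wild-type ones, a log2 ratio of -0.69 (-0.80 to -0.58). Mir155hg had 76.8 CPM in knock-in against 96.6 CPM in wild-type B cells, a ratio of -0.33 (-0.46 to -0.20). Nfkbid ran the other way, with 124 CPM in knock-in against 105 CPM in wild-type B cells, a ratio of 0.24 (0.13 to 0.34). The 3 summed to 299 CPM in knock-in and 359 CPM in wild-type B cells, a ratio of -0.27 (-0.33 to -0.20). Gadd45g, outside the rule, had 194 CPM in knock-in against 158 CPM in wild-type B cells, a ratio of 0.30.

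Irf4 was lower in knock-in T cells as well, at 16.1 CPM against 24.3 CPM in wild-type T cells, a ratio of -0.59 (-1.02 to -0.17). The sum of the 3 genes was level there, at 118 CPM in both libraries. With Irf4 left out of the rule, a choice made after seeing the data, the share of members among rule B cells was 8.76% in knock-in and 11.7% in wild-type cells, a ratio of -0.42. With Irf4 left out and cells thinned, 3.04% of knock-in and 3.64% of wild-type B cells held 2 UMIs, and the interval of the ratio, -0.26 (-0.59 to 0.07), included 0. So did the interval with Mir155hg left out and cells thinned, -0.21 (-0.51 to 0.09). By Nfkbid alone, 4.91% of knock-in and 5.06% of wild-type B cells held 2 UMIs, a ratio of -0.04 (-0.31 to 0.22), and in thinned cells the ratio was 0.21 (-0.26 to 0.68). By Irf4 alone the ratio was -1.33 (-1.60 to -1.06), and in thinned cells it was -0.75 (-1.33 to -0.20). In single-gene terms, at least 1 Irf4 UMI was seen in 9.47% of thinned knock-in and 14.3% of thinned wild-type B cells, and at least 1 Nfkbid UMI in 10.3% of thinned knock-in and 8.85% of thinned wild-type B cells.

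**Figure D4:**
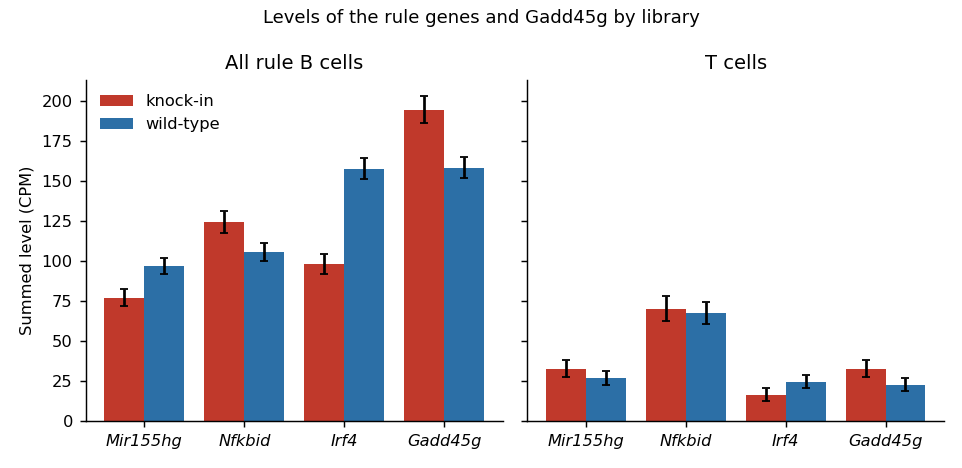
Summed level in CPM of Mir155hg, Nfkbid, Irf4 and Gadd45g over all rule B cells (left) and T cells (right), knock-in bars in red left of wild-type bars in blue, with exact 95% Poisson intervals for counting error. In B cells Irf4 and Mir155hg are lower and Nfkbid and Gadd45g higher in the knock-in library; each gene is to be read between libraries, not against other genes.

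Knock-in and wild-type members differed in many genes, and part of these differed the same way in zero B cells of the same libraries. Of 5046 genes measured in members, 427 were higher in knock-in (8.46%) and 498 lower (9.87%) at the same fold, a comparison of 2 libraries with no replicate. Of the 427, 168 passed the fold the same way in zero B cells, and of the 498, 162 did, where 262 and 316 of all 5046 genes passed upward and downward in zero B cells. In the opposite direction 2 of the higher genes passed in zero B cells and 0 of the lower ones. The median ratio over these genes was -0.02 in members and -0.02 in zero B cells.

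Among the 82 genes higher in members, the median knock-in over wild-type ratio within members was -0.03. Nfkbia lay at -0.29 (-0.38 to -0.19) in members and -0.01 in zero B cells. The NF-kB list had a median of -0.29 in members and -0.12 in zero B cells, with Nfkb2 and Rela past the fold downward and Tnfaip8 upward. Ccnd2 and Icam1 were lower in knock-in members, both at -0.59, with -0.47 and -0.25 in zero B cells. Bcl2a1b was higher at 0.89 (0.72 to 1.06), with 0.84 in zero B cells.

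The named genes higher in knock-in members were picked by size, not by function. Psmb8, an immunoproteasome subunit, had 373 CPM in knock-in against 180 CPM in wild-type members, a ratio of 1.05 (0.90 to 1.20), and 0.72 in zero B cells. Mzb1, a chaperone of antibody assembly, had 408 CPM in knock-in against 194 CPM in wild-type members (1.07), and 0.48 in zero B cells. Stmn1, a tubulin regulator of dividing cells, reached 1.10 and Dut, which hydrolyses dUTP, 1.19, with 0.99 and 0.89 in zero B cells. Ccl4 had 161 CPM in knock-in against 62.0 CPM in wild-type members (1.37), and 1.27 in zero B cells. In members 10 cells held 72.2% of the knock-in and 63.4% of the wild-type Ccl4 UMIs. Fos reached 1.02 in members and 0.99 in zero B cells. Bcl2a1d, Tent5c, Tmem14c, Hist1h2ae and Suclg1 lay between 1.03 and 1.29, and between 0.46 and 0.72 in zero B cells.

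The widest heat shock ratios rested largely on single cells, and they were smaller but still above 0 without those cells. Dnajb1, a co-chaperone, had 138 CPM in knock-in against 33.6 CPM in wild-type members, a ratio of 2.04. In the knock-in library 1 cell held 58.9% of its UMIs, and without the top cell of each library the ratio was 0.78. For Hspa1a and Hspa1b, 1 knock-in cell held 94.2% and 81.3% of the UMIs, and the ratios were 5.05 and 5.59. Without the top cells these ratios were 1.12 and 3.43. Wild-type members held only 9 and 6 UMIs of these genes. Of 14 measured heat shock and handling stress genes 6 were higher and 0 lower in knock-in members, with a list median of 0.33 in members and 0.19 in zero B cells.

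The 12 named genes lower in knock-in members were picked by size. Sh2b3, the adaptor LNK, had 36.2 CPM in knock-in against 84.5 CPM in wild-type members, a ratio of -1.22 (-1.61 to -0.85), and -0.55 in zero B cells. Fyn, a Src family kinase, lay at -0.97, and Dgkd, a diacylglycerol kinase gene, at -0.89. Ciita, the master activator of MHC class II genes, had 46.7 CPM in knock-in against 86.0 CPM in wild-type members (-0.88). Of 10 measured class II list genes 1, Ciita itself, was lower, near the 9.87% of all genes measured in members. Nfe2l1, Dleu2, Sipa1l1, Glcci1, Dip2b, Susd6, Cyth1 and Exoc5 lay between -1.12 and -0.85, and all 12 of the named lower genes lay between -0.75 and -0.48 in zero B cells.

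By list, nutrient uptake and glycolysis had 4 of 11 measured genes higher and 0 lower in knock-in members, with a median of 0.46 in members and 0.42 in zero B cells. Gapdh had 761 CPM in knock-in against 452 CPM in wild-type members (0.75), and 0.59 in zero B cells. Cell cycle genes had 5 of 11 higher and 1 lower, with a median of 0.40 in members and 0.26 in zero B cells. Of 15 MHC class I genes 3 were higher (median 0.20), of 15 interferon gamma genes 4 were higher and 2 lower (0.10), and of 14 type I interferon genes 2 were higher and 1 lower (0.22). The medians of these 3 lists in zero B cells were 0.28, 0.16 and 0.11. Over all 5046 genes measured in members, 8.46% were higher and 9.87% lower. Ly6a and Isg15 were the 2 higher type I genes, at 0.97 and 0.90, with 0.78 in zero B cells for each. Follicular identity genes had a median of -0.36 in members, with Il4ra, Gpr183 and Klf3 past the fold, and -0.10 in zero B cells. Nuclear long non-coding RNAs had 5 of 7 lower in knock-in members (median -0.56) and a median of -0.59 in zero B cells, so this gap was as wide outside the members.

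**Figure D5:**
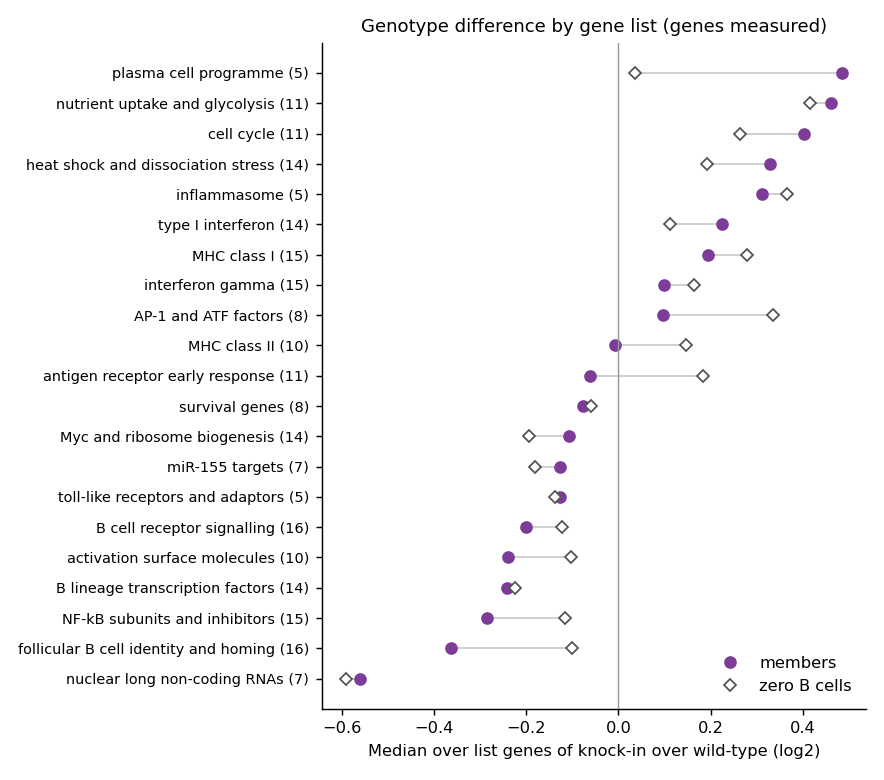
Median log2 ratio of knock-in over wild-type over the measured genes of each list with at least 5, in members (filled) and in zero B cells (open), with the number of genes in brackets. Nuclear long non-coding RNAs sit near -0.6 in both, glycolysis above 0.4 in both, and the follicular list at -0.36 in members and -0.10 in zero B cells.

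RNA of other cell types was present in some members. The 8 NK cell markers summed to 109 CPM in knock-in members against 17.1 CPM in zero B cells, and 84.5 CPM in wild-type members against 42.1 CPM in zero B cells, with none at 0 in members. These UMIs lay in 24 of 639 knock-in and 44 of 1170 wild-type members. Ccl5, a chemokine of cytotoxic lymphocytes, was called higher in members, at 331 CPM in knock-in members against 39.9 CPM in zero B cells and 218 CPM in wild-type members against 115 CPM in zero B cells. Its 10 top cells held 92.4% of the knock-in and 90.5% of the wild-type member UMIs. Without B cells holding other cell types' marker UMIs, a choice made after seeing the data, its wild-type ratio turned from 0.92 to -0.50, which ends the call. Haemoglobin and other erythroid markers summed to 792 CPM in knock-in against 21.4 CPM in wild-type members, and to 1811 CPM in knock-in against 90.1 CPM in wild-type zero B cells. The members' gap rested largely on single cells. The top knock-in member for each gene held 98.1% of the Hba-a1, 97.5% of the Hbb-bs, 95.1% of the Hba-a2 and 91.3% of the Hbb-bt UMIs. An erythroid UMI was found in 52 of 639 knock-in and 52 of 1170 wild-type members. The 10 T cell markers summed to between 67.2 and 87.3 CPM, the 10 monocyte and macrophage markers to between 84.6 and 192 CPM, and the 8 neutrophil markers to between 34.7 and 120 CPM in the 4 groups of cells. The 8 dendritic cell markers summed to 94.9 CPM in knock-in members against 95.4 CPM in zero B cells, and to 146 CPM in wild-type members against 91.1 CPM in zero B cells. Their UMIs lay in 22.2% of knock-in members against 15.1% of zero B cells, and in 22.1% of wild-type members against 14.8% of zero B cells, and members were the deeper cells in both libraries. Of the 189 such UMIs in knock-in members, Bst2 gave 101 and Flt3 65, and of the 559 in wild-type members they gave 279 and 111. In zero B cells they gave 424 and 109 of 569 knock-in UMIs, and 378 and 150 of 614 wild-type UMIs. The remaining dendritic markers thus had their largest part in wild-type members, and the source of these UMIs was not tested. Bst2 is also in the type I interferon list, so its UMIs do not mark dendritic cells alone. Among the markers at 0 in members were Cd28, Vcan, Retnlg, Ngp, Ltf, Xcr1, Clec9a and Siglech in the knock-in library, and Ngp, Camp, Ltf, Xcr1, Hba-a1 and Alas2 in the wild-type library. Scrublet marked 10 knock-in members (1.56%) and 16 wild-type members (1.37%) as doublets, against 0.550% of knock-in and 0.736% of wild-type zero B cells. These marks came from 1 of 5 random seeds, and 3 of the 5 marked 0 or 1 barcode in the whole knock-in library, so the shares are not firm. The part of these cells in the other results was not tested, except that without B cells holding any T, NK, monocyte or neutrophil marker UMI 75 genes were higher and 25 lower in members, and the share ratio was -0.72. That removal did not cover the dendritic or erythroid markers.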

How the data were processed

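Spleen cells of 1 knock-in and 1 wild-type library were profiled with 10x Genomics 3' v3.1 chemistry, per the labels' protocols. The deposited matrices hold UMI counts per gene and barcode, with no scaling, and per the file headers the software was Cell Ranger 6.1.2. It is version 7.1.0 in the submitters' processing notes, which also list Seurat 5.0.3 and mm10, so the version is uncertain. No source used here states the gene annotation. The barcodes deposited were 9000 knock-in and 10449 wild-type, with 25193274 and 32797052 UMIs, and 8583 and 9733 were kept.

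Each library is 1 sample of its genotype. UMIs were summed per library and set of cells and divided by their total, with Python 3.11.15, numpy 2.4.6 and scipy 1.17.1. Shares carry exact Clopper-Pearson intervals, levels exact Poisson intervals and ratios exact conditional binomial intervals, at 95%. Where a library had 0 UMIs of a gene, 3 counts took their place. Cells were not treated as replicates, so no p-value was made. On simulated data for knock-in over wild-type members, with 200 of 5018 genes changed 2-fold, 100% of the changed and 1.64% of the other genes were called. The simulation drew Poisson counts from 1 profile, that of wild-type members, with no variation between cells or libraries. It changed only genes of at least 50 CPM, and by more than the fold for a call. Its 1.64% is therefore not a rate of false calls between these 2 libraries. Doublets were kept in the main values and removed in an alternative, as called by Scrublet in scanpy 1.11.5 at an expected rate of 0.08 (173 knock-in and 232 wild-type barcodes). These calls depended on the random seed, which was changed to 1 after seed 0 had marked 1 knock-in barcode: over seeds 0 to 4 Scrublet marked 1, 173, 173, 1 and 0 of 8583 knock-in barcodes and 157 to 235 of 9733 wild-type barcodes. The removal of doublets is therefore a weak check.

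Named genes were picked by size among genes with a mean of at least 50 CPM and 100 UMIs: the 14 highest and 10 lowest by the smaller of the 2 libraries' ratios for members over zero B cells, the 12 highest and 12 lowest for knock-in over wild-type members, and up to 4 genes a list. The text also names genes for their role, and the members that make up a small count. Members, rules and the 33 gene lists were chosen with earlier results of these data known. The alternatives were other cell filters, doublets and shared barcodes removed, thinning to 1000 UMIs, a limit of 3 UMIs, depth weighting, TMM factors (edgeR 4.0.16, R 4.3.3), another total, per-cell means, another gene filter and another fold. Gene positions came from GENCODE M21, which matched 32158 of 32285 features (99.6%). Some members of the marker lists are not reported here.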

Additional observations from a re-analysis of the deposited data

Results flagged for a closer look

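For 2 genes the knock-in over wild-type ratio lay past the fold in opposite directions in members and in zero B cells, and the difference between these sets was not tested. Egr2, an early response factor of receptor signalling, had 31.1 CPM in knock-in against 21.1 CPM in wild-type members, a log2 ratio of 0.56 (0.06 to 1.06). In zero B cells it had 5.37 CPM in knock-in against 7.86 CPM in wild-type cells, a ratio of -0.55 (-1.23 to 0.11) on 32 and 53 UMIs, an interval that includes 0. Ccl5 had 331 CPM in knock-in against 218 CPM in wild-type members, a ratio of 0.60, and 39.9 CPM in knock-in against 115 CPM in wild-type zero B cells, a ratio of -1.53. A Ccl5 UMI was found in 23 of 639 knock-in and 58 of 1170 wild-type members, and 1 cell held 16.2% of the knock-in and 24.6% of the wild-type member UMIs.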

How the results depend on the processing

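The share of members by all 3 genes or by any 2 of them stayed lower in knock-in, with log2 ratios of -0.37 after thinning to 1000 UMIs, -1.01 without Nfkbid in the rule and -0.42 without Irf4. By Nfkbid alone it was -0.04, and 0.21 in thinned cells. The summed level of the 3 genes stayed lower throughout, at -0.36 under a 5% mitochondrial limit. Of the counts of genes, 148 were higher and 63 lower in members at 3 or more UMIs. Those lower in members numbered 40 in thinned cells, 33 over a total without immunoglobulin, ribosomal protein and mitochondrial genes, and 13, 37 and 50 without Mir155hg, Nfkbid and Irf4 in the rule. With any gene of at least 10 UMIs, 396 were higher and 281 lower in members, and 1434 higher and 1848 lower in knock-in members. At a log2 fold of 1 these were 11 and 0, and 47 and 21. The follicular list's median in the knock-in library turned from -0.22 to 0.10 when zero B cells were weighted to the members' depth, and Ccl5 in the wild-type library from 0.92 to -0.50 without cells holding other cell types' marker UMIs. The cause was not tested. Of the named genes' values under alternatives, 840 of 984 stayed within the main counting interval and 1 reversed. Of the list medians, 817 of 831 stayed within an interval taken from the spread of the list's own gene ratios. That is not a counting interval and is wide for short lists, so staying inside it is a weak check. The rules without a gene and the removal of cells with other markers were chosen after seeing the data. No paired analysis was possible because each genotype has 1 library. Depth and the choice of gene both limit the shares.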

Other observations

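None of 5 measured Toll-like receptor genes passed the fold between members and zero B cells, with medians of -0.06 in knock-in and 0.13 in wild-type cells. So few genes would rarely hold any at the shares over all measured genes, 1.74% higher and 0.424% lower. Of the inflammasome list, 1 of 4 measured genes passed: Casp4, an inflammatory caspase that senses lipopolysaccharide, had 62.8 CPM in knock-in members against 34.0 CPM in zero B cells, and 50.6 CPM in wild-type members against 26.4 CPM in zero B cells. Between the genotypes 2 of 5 measured inflammasome genes were higher and 1 lower in knock-in members, against 8.46% and 9.87% of all genes measured there. Pycard, the adaptor ASC, lay at 0.77 in members and 0.54 in zero B cells, Casp1 at 0.60 and 0.87, and Aim2, a DNA sensor, at -0.51 and -0.06.

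None of 14 measured B lineage transcription factor genes passed the fold between members and zero B cells, with medians of -0.20 in knock-in and -0.16 in wild-type cells. Among all measured genes 1.74% were higher and 0.424% lower, so none in 14 is near that share. Bcl6, the germinal centre repressor, had 39.7 CPM in knock-in against 61.3 CPM in wild-type members, a log2 ratio of -0.63 (-1.01 to -0.25), and -0.35 in zero B cells. Mki67, a marker of dividing cells, was too low to be measured between members and zero B cells. It had 49.7 CPM in knock-in against 8.34 CPM in wild-type members, with 46.5% of the knock-in UMIs in 1 cell.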
